A study of Bos taurus with 6 samples.

Results

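ZNF genes, named here as the gene symbols that consist of ZNF and a number alone, were described in RNA-seq libraries of bovine embryonic stem cells (bESCs). The genes were chosen by their raw counts, with at least 10 counts required in each of the 6 libraries, and 204 of the 229 ZNF genes in a count table of 19163 genes met this rule. The rule used the level of a gene in every library, not the difference between the groups. The cells were of 1 line, F7, a pluripotent stem cell line derived from Holstein Friesian embryos made by in vitro fertilization. MC-F7 cells were grown on mouse embryonic fibroblasts (MEFs) arrested with mitomycin C, a DNA cross-linker, and MT-F7 cells on MEFs killed and fixed with methanol. Each group had 3 libraries, and the comparison asks how the fixed feeder layer changed expression in the bESCs. The cells of both groups had been passaged 15 times, in an mTeSR1-based medium with FGF and the tankyrase inhibitor IWR1. The medium was changed daily in MC-F7 and every other day in MT-F7, so that the feeder treatment and the medium change cannot be told apart. Dissociated cells were left on gelatin, to which feeder cells attach, and the floating cells were sequenced. Nothing in the labels puts the 3 libraries of a group in separate cultures, and the p values then measure only the spread between these samples, which may be technical.

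ZNF genes encode proteins that bind DNA or RNA through zinc fingers, small folds held by a zinc ion, most of them of the C2H2 kind repeated in tandem. In mammals the largest class joins an array of such fingers to a KRAB domain. That domain recruits the corepressor TRIM28 and with it the methyltransferase SETDB1, which puts a silencing mark on histone H3, often at transposable elements. Many KRAB genes lie in clusters of recent copies, while other ZNF genes are old, single and conserved, with roles in development, chromatin complexes, RNA processing or ribosome assembly.

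Depth ran from 21958386 to 23414319 counts for the MC-F7 libraries and from 24271208 to 24933430 for MT-F7. Levels are given as CPM, the counts of a gene scaled to an equal, TMM-normalised library size. The limit of detection was taken as 3 counts, which stood for 0.120 to 0.137 CPM over total counts, without TMM scaling. The 204 ZNF genes took 0.506% to 0.556% of the counts in MC-F7 and 0.509% to 0.537% in MT-F7, so that the ranges of both groups overlapped. Mitochondrial genes took 16.3%, 19.8% and 28.3% of the counts in the MC-F7 libraries and 23.2%, 18.0% and 27.9% in the MT-F7 libraries. Of 8 pluripotency markers tested, POU5F1 (OCT4), NANOG, LIN28A and DPPA4 passed the test below as lower in MT-F7, while SALL4, OTX2, PRDM14 and ZIC2, with log2 fold changes of 0.33, 0.26, 0.15 and 0.03, did not pass. Summed marker CPM was taken over total counts, without TMM scaling. For the 10 pluripotency markers in the table it was 1143 to 1753 in MC-F7 and 781 to 944 in MT-F7, and 1 or 2 markers were at 0 in each library. POU5F1 alone had TMM-normalised means of 1196 and 522 CPM. The summed CPM of 19 fibroblast markers was 426 to 536 in MC-F7 and 702 to 760 in MT-F7, with 6 of them higher, 1 lower and none at 0 in any library. The feeders were mouse cells and the genes counted are bovine, so this sum does not measure how many feeder cells were left. The authors report that a larger share of reads aligned to the bovine genome in MT-F7 than in MC-F7. They propose that fixed feeders left less feeder contamination. Whether mouse reads were counted on bovine genes was not tested. The summed CPM of 11 early neural markers was 680 to 848 in MC-F7 and 1011 to 1214 in MT-F7. Of the 7 tested, 3 were higher and 1 lower, and 1 to 3 of the 11 were at 0 in each library. In bulk libraries such as these, fewer cells of a type and less RNA per cell cannot be told apart.

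In counts normalised for depth, ZNF genes fell more often than they rose in MT-F7. The deposited TPM values, which are not corrected for depth, gave the opposite split. By edgeR's quasi-likelihood test with Benjamini-Hochberg adjustment over 13001 tested genes and an adjusted p under 0.05 as the threshold, 25 of the 204 were lower in MT-F7 and 8 were higher. All 204 were tested. Over all tested genes 11.3% were lower and 11.9% were higher, and among the ZNF genes 12.3% were lower and 3.92% were higher. The share of ZNF genes that passed in either direction, 16.2%, was below the 23.2% of all tested genes and below the 22.7% of the 11970 genes that had at least 10 counts in every library. Of the passing ZNF genes 24.2% were higher in MT-F7, against 51.5% of all passing genes. The deposited values in the unit that the authors call TPM, tested with limma on log2(TPM + 1), gave the opposite split of 15 higher and 11 lower ZNF genes. Over the libraries those values are proportional to the raw counts of each of the 204 genes, without correction for depth. The MT-F7 libraries were the deeper ones, with 24271208 to 24933430 counts against 21958386 to 23414319 in MC-F7. The median log2 fold change over all tested genes was 0.057 for the deposited values, against -0.0026 in the edgeR fit. The part of depth in the opposite split was not tested.

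Most ZNF genes moved little. The median log2 fold change of the 204 genes (MT-F7 over MC-F7) was -0.13, with quartiles at -0.42 and 0.20, and 148 genes lay within 0.5 of 0. Below 0 were 123 genes and above 0 were 81. The typical size of a change was a little above that of other genes. The median absolute log2 fold change was 0.37 among ZNF genes and 0.34 over all tested genes. It was 0.32 over tested genes that met the same count minimum. Large changes were fewer, since 13 ZNF genes (6.37%) had an absolute log2 fold change over 1, against 13.6% of all tested genes and 10.5% of tested genes that met the same count minimum. The CPM values of both groups did not overlap in 72 ZNF genes (35.3%), 45 of them lower and 27 higher in MT-F7, and over all tested genes the share was 40%. All 33 genes that passed the test were among these 72.

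**Figure D1:**
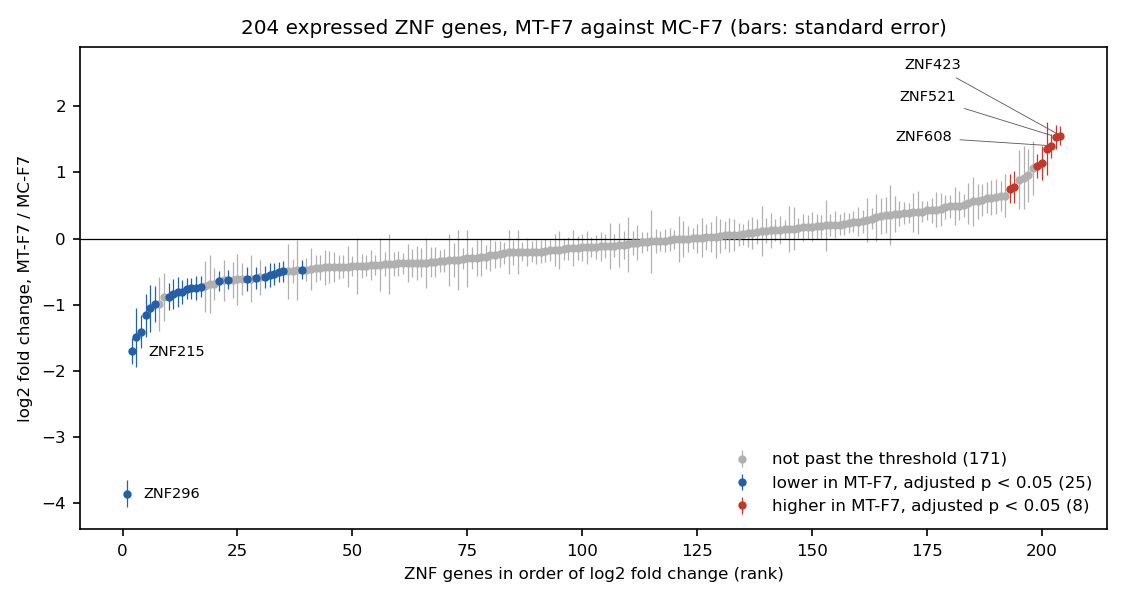
Log2 fold change of each of the 204 ZNF genes (y axis, MT-F7 over MC-F7) in order of its size (x axis, rank), with bars of 1 standard error and colours for the genes that passed the test, 25 lower and 8 higher. ZNF296 lies alone at -3.86, far below ZNF215 at -1.71, and the 3 highest passing genes named are ZNF423, ZNF521 and ZNF608.

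These counts changed with the library that was left out. The number of higher genes was 5 without MC-F7 replicate 2, 15 without MC-F7 replicate 3 and 5 without MT-F7 replicate 1. The number of lower genes was 11 without MC-F7 replicate 2, 13 without MT-F7 replicate 1 and 16 without MT-F7 replicate 2. The share of all tested genes that passed was 14.5%, 16.3% and 16.9% in those fits, in that order. It was 23.4% without MC-F7 replicate 3 and 23.2% with all 6 libraries. In each fit that left out 1 library, the lower genes outnumbered the higher ones. The 15 genes that passed in all 6 of those fits were ZNF296, ZNF215, ZNF614, ZNF350, ZNF146, ZNF526, ZNF646, ZNF394, ZNF329 and ZNF830, all lower in MT-F7, and ZNF423, ZNF521, ZNF608, ZNF470 and ZNF428, all higher. The other 18 lost their call in at least 1 fit, with an adjusted p of 0.0504 to 0.186 in edgeR's test there.

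The gene with the largest change was ZNF296 (Entrez gene 539503), whose mouse counterpart is expressed in embryonic stem cells, binds the reprogramming factor KLF4 and aids the return of somatic cells to pluripotency. Its level was 40.5, 33.5 and 37.9 CPM in the MC-F7 libraries and 2.51, 2.12 and 3.06 CPM in the MT-F7 libraries. The groups lay far apart, and each MT-F7 library still held between 55 and 72 counts of the gene, above the limit of detection. The fold change was 14.5-fold lower in MT-F7 (log2 fold change -3.86, SE 0.199, adjusted p = 3.5e-07). The next was ZNF215 (Entrez gene 529157), a KRAB gene that is imprinted in human, with 42.5, 59.5 and 63.6 CPM in MC-F7 and 20.4, 15.7 and 14.5 CPM in MT-F7. Its lowest MC-F7 library was above its highest MT-F7 library, and the gene was 3.27-fold lower (log2 fold change -1.71, SE 0.197, adjusted p = 5.6e-05). The summed pluripotency markers given above, most of whose CPM was POU5F1, were lower in the same libraries, and their part in the ZNF296 result was not tested.

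Several further genes fell by less. ZNF614 had 6.02, 9.62 and 10.3 CPM in MC-F7 and 3.55, 2.82 and 3.35 CPM in MT-F7, a log2 fold change of -1.41 (SE 0.250, adjusted p = 0.0014). ZNF350, a KRAB repressor also called ZBRK1 that binds BRCA1, had 8.49, 8.62 and 10.6 CPM in MC-F7 and 5.10, 4.56 and 5.39 CPM in MT-F7, a log2 fold change of -0.88 (SE 0.201, adjusted p = 0.0069). ZNF146, an unusual member made almost wholly of zinc fingers, had 19.6, 25.0 and 26.4 CPM in MC-F7 and 15.9, 11.9 and 13.0 CPM in MT-F7, a log2 fold change of -0.80 (SE 0.182, adjusted p = 0.0067). In these 3 genes every MC-F7 library was above every MT-F7 library. ZNF526 was nearly flat within each group, with 23.4, 21.6 and 22.9 CPM in MC-F7 and 13.3, 14.6 and 12.3 CPM in MT-F7 (log2 fold change -0.76, SE 0.159, adjusted p = 0.0042).

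The remaining genes of the 12 with the largest passing decreases lost their call in some of the fits that left out 1 library. They were ZNF623, ZNF852, ZNF268, ZNF200, ZNF227 and ZNF548, with log2 fold changes between -1.50 and -0.81. ZNF623 was close to the lower limit of the rule, where its raw counts were 26, 58 and 47 on mitomycin C-treated and 18, 10 and 22 on methanol-fixed feeders. ZNF268 had its groups almost touching, with 5.84, 3.65 and 3.13 CPM in MC-F7 and 1.35, 1.62 and 3.10 CPM in MT-F7 (adjusted p = 0.0497). ZNF268 lost its call without MC-F7 replicate 1 or 2 and without MT-F7 replicate 1 or 2, with an adjusted p of 0.0824 to 0.186. ZNF623 and ZNF852 each lost it without MC-F7 replicate 2 or 3 and without MT-F7 replicate 1 or 2, at 0.0607 to 0.123 and 0.0504 to 0.0745. ZNF200 lost it without MC-F7 replicate 1 or 2 (0.0634 to 0.0648), ZNF227 without MC-F7 replicate 3 or MT-F7 replicate 1 (0.0577 to 0.0595) and ZNF548 without MC-F7 replicate 2, MT-F7 replicate 2 or MT-F7 replicate 3 (0.0576 to 0.114). The other 8 lower genes on no role list were ZNF646, ZNF394, ZNF329, ZNF174, ZNF566, ZNF408, ZNF16 and ZNF574, named to complete the account, with log2 fold changes between -0.76 and -0.48.

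The genes that rose were led by a pair of paralogs. ZNF423 (Entrez gene 508025) and ZNF521 (Entrez gene 538792) encode large proteins with many zinc fingers that bind the EBF transcription factors, and ZNF423 also works with SMAD proteins in BMP signalling and with the retinoic acid receptor. ZNF521 promotes the neural fate of mouse embryonic stem cells. ZNF423 had 44.4, 41.3 and 36.4 CPM in MC-F7 and 119, 124 and 117 CPM in MT-F7. The MT-F7 libraries differed little among themselves, and ZNF423 was 2.95-fold higher (log2 fold change 1.56, SE 0.147, adjusted p = 1.1e-05). The libraries of ZNF521 held 9.33, 12.3 and 12.7 CPM in MC-F7 and 30.4, 38.4 and 31.3 CPM in MT-F7, and its groups did not overlap (log2 fold change 1.54, SE 0.181, adjusted p = 6.7e-05). The summed early neural and fibroblast markers were higher in the same libraries. Of the markers that passed, ELAVL3 (log2 fold change -2.35) and TWIST2 (-2.15) were lower, against 3 neural and 6 fibroblast markers that were higher. NES and COL1A1, large terms of these sums, did not pass. The part of these markers in the ZNF423 and ZNF521 results was not tested.

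ZNF608 (Entrez gene 509992), a developmental gene whose paralog ZNF609 works with the cohesin loader NIPBL, had 11.5, 16.0 and 17.0 CPM in MC-F7 and 36.1, 40.1 and 42.0 CPM in MT-F7. Its groups were well apart, and it was 2.65-fold higher (log2 fold change 1.41, SE 0.180, adjusted p = 1.4e-04). ZNF609 did not pass the test, with 1.73, 2.69 and 4.77 CPM in MC-F7 and 4.42, 5.41 and 4.54 CPM in MT-F7 (log2 fold change 0.65, SE 0.328, adjusted p = 0.18). MC-F7 replicate 3 lay within the MT-F7 range of ZNF609, and whether the paralogs differed in their change was not tested.

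ZNF428 (Entrez gene 540173) had 78.5, 61.8 and 58.6 CPM in MC-F7 and 115, 147 and 163 CPM in MT-F7. Every MT-F7 library was above every MC-F7 library (log2 fold change 1.10, SE 0.177, adjusted p = 7.3e-04). ZNF470 was also higher, with 2.26, 3.61 and 3.37 CPM in MC-F7 and 5.90, 6.30 and 8.32 CPM in MT-F7 (log2 fold change 1.15, SE 0.256, adjusted p = 0.0060). ZNF93, whose human counterpart silences LINE-1 transposons, had 7.43, 10.2 and 16.2 CPM in MC-F7 and 20.2, 18.7 and 18.9 CPM in MT-F7 (log2 fold change 0.77, SE 0.241, adjusted p = 0.034). ZNF93 kept its call only in the fit without MC-F7 replicate 3, the library nearest to MT-F7, and otherwise had an adjusted p of 0.0539 to 0.128 with 1 library left out. ZNF467 (log2 fold change 1.36, SE 0.396, adjusted p = 0.025) lost its call without MC-F7 replicate 2, MT-F7 replicate 1 or MT-F7 replicate 3, at 0.0576 to 0.0895. ZNF800, a repressor of enteroendocrine genes (log2 fold change 0.76, SE 0.217, adjusted p = 0.023), lost it without MC-F7 replicate 2 or MT-F7 replicate 1, at 0.0893 to 0.126.

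**Figure D2:**
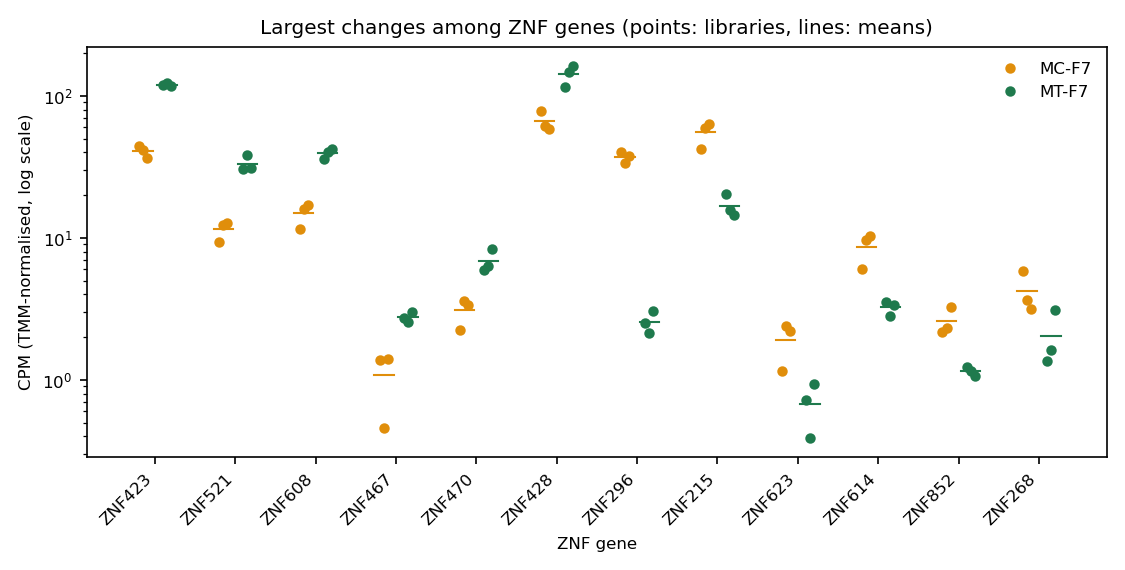
TMM-normalised CPM on a log scale (y axis) of the 6 ZNF genes with the largest passing increases and the 6 with the largest passing decreases (x axis), with a point for each library and a line at the mean of each group of 3. In ZNF296 the MC-F7 libraries lie between 33.5 and 40.5 CPM and the MT-F7 libraries between 2.12 and 3.06 CPM, while the ZNF268 groups almost touch at 3.13 and 3.10 CPM.

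By role, the ZNF genes known from development held the 3 largest passing increases. Of 10 expressed genes on this list, ZNF423, ZNF521 and ZNF608 rose and ZNF395 fell (40% in all, against 23.2% of all tested genes and 16.2% of the ZNF genes), and the median log2 fold change was 0.46. ZNF395 had 25.4, 21.4 and 18.6 CPM in MC-F7 and 15.1, 14.1 and 14.6 CPM in MT-F7 (log2 fold change -0.58, SE 0.170, adjusted p = 0.026). ZNF395 lost its call without MC-F7 replicate 1 or 2 and without MT-F7 replicate 1 or 2, at 0.0677 to 0.0950. Its relative ZNF704 was at -0.99 without passing (SE 0.406, adjusted p = 0.098). ZNF503 and ZNF703, corepressors of the NET family, were at 1.07 (SE 0.412, adjusted p = 0.080) and 0.28 (SE 0.331, adjusted p = 0.59) and did not pass. The lists by role were chosen with earlier results of these data known, so that a count over one is a description.

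Of the 22 expressed genes on the list of chromatin and promoter factors, 4 were lower in MT-F7 and 18 did not pass (18.2% passing, near the shares of all tested genes and of the ZNF genes), and the median log2 fold change was -0.15. Besides ZNF296 the lower genes were ZNF217, ZNF507 and ZNF687. ZNF217, a repressor that works with CoREST and CtBP, had 20.9, 28.7 and 25.7 CPM in MC-F7 and 15.4, 12.4 and 17.0 CPM in MT-F7 (log2 fold change -0.75, SE 0.184, adjusted p = 0.010). ZNF687 had 80.3, 84.0 and 76.7 CPM in MC-F7 and 49.8, 55.5 and 63.8 CPM in MT-F7 (log2 fold change -0.51, SE 0.149, adjusted p = 0.025). The proteins of ZNF687, ZNF592 and ZNF532 form 1 chromatin complex, but ZNF592 and ZNF532 were both at 0.21 and did not pass (adjusted p = 0.36 and 0.49). Of the 3 genes, ZNF217 lost its call without MC-F7 replicate 2 or MT-F7 replicate 2 (0.0550 to 0.0682), ZNF687 without MC-F7 replicate 1 or 2 or MT-F7 replicate 1 or 2 (0.0530 to 0.124) and ZNF507 without MC-F7 replicate 1 or 2 or MT-F7 replicate 1 or 3 (0.0606 to 0.134). The highest log2 fold change of the list was that of ZNF516, 0.61, without passing (SE 0.234, adjusted p = 0.077).

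Of the 14 genes that act on RNA, ribosomes or the spindle, 1 passed (7.14%), ZNF830, a splicing factor, which fell. It had 65.6, 57.5 and 63.3 CPM in MC-F7 and 39.3, 40.6 and 40.9 CPM in MT-F7, with no overlap (log2 fold change -0.63, SE 0.142, adjusted p = 0.0066). The other 13 did not pass. ZNF622 and ZNF593, which help to mature the large ribosomal subunit, were at -0.42 (SE 0.154, adjusted p = 0.067) and -0.44 (SE 0.190, adjusted p = 0.11). ZNF638, which takes part in silencing retroviral DNA, had 200, 200 and 220 CPM in MC-F7 and 276, 292 and 242 CPM in MT-F7, and its groups did not overlap although it missed the threshold (log2 fold change 0.39, SE 0.147, adjusted p = 0.077). ZNF207, which loads BUB3 onto kinetochores, was at 0.12 (SE 0.188, adjusted p = 0.70). The 158 ZNF genes on none of the 3 lists held 5 of the higher and 19 of the lower genes, with a median log2 fold change of -0.13. Their passing share was 15.2%, against 16.2% of all ZNF genes and 23.2% of all tested genes.

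The genes through which KRAB proteins silence chromatin passed the test at a share near that of all tested genes. Of 31 tested genes on a list of such corepressors 25 did not pass, 3 were higher and 3 were lower (19.4% in all, against 23.2% of all tested genes), with a median log2 fold change of 0.11. TRIM28, the shared partner, had means of 618 CPM in MC-F7 and 614 CPM in MT-F7 (log2 fold change -0.0090, SE 0.149, adjusted p = 0.97). SETDB1 was at 0.20 without passing (adjusted p = 0.34). UHRF1, which guides the maintenance methyltransferase DNMT1 to replicated DNA, rose from a mean of 113 to 292 CPM (log2 fold change 1.37, SE 0.149, adjusted p = 3.6e-05), and DNMT1 itself from 55.0 to 84.4 CPM (log2 fold change 0.62, SE 0.147, adjusted p = 0.0086). CHD3, a remodeller of the NuRD complex, rose from 13.6 to 24.4 CPM (log2 fold change 0.84, adjusted p = 0.0032), while MTA3, another NuRD subunit, fell from 123 to 61.8 CPM (log2 fold change -0.996, adjusted p = 8.0e-04). SUV39H1, a methyltransferase of the same histone residue as SETDB1, fell from 45.9 to 31.3 CPM (log2 fold change -0.55, adjusted p = 0.020), and ATF7IP2, a relative of a SETDB1 partner, from 3.21 to 1.20 CPM (log2 fold change -1.42, adjusted p = 0.012). SUV39H1 lost its call without MC-F7 replicate 2, MT-F7 replicate 1 or MT-F7 replicate 2, at an adjusted p of 0.0797 to 0.0912.

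**Figure D3:**
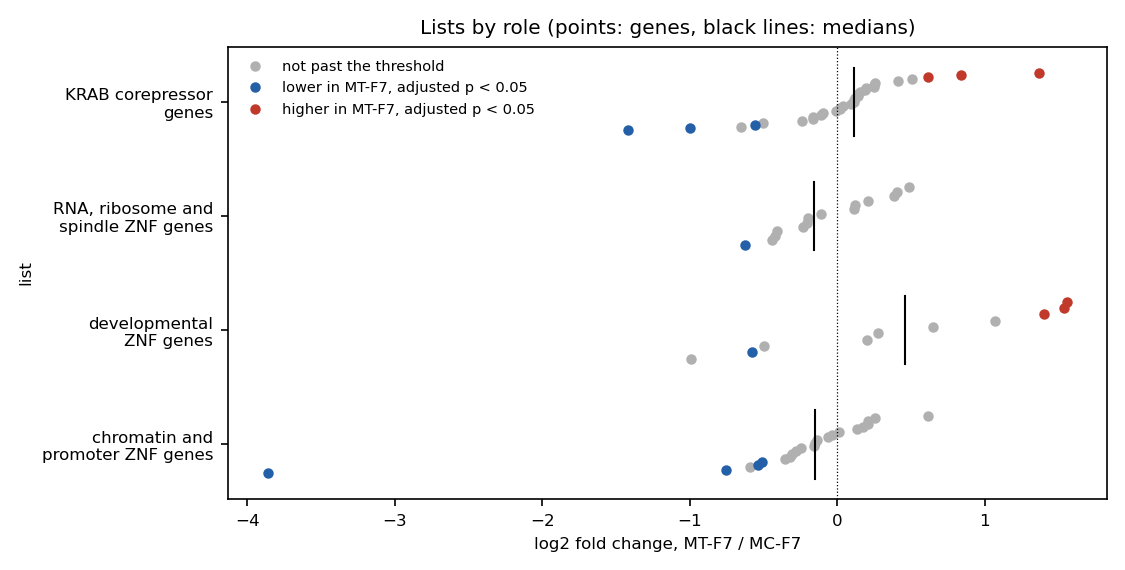
Log2 fold change (x axis, MT-F7 over MC-F7) of each gene on the lists of ZNF genes by role and of KRAB corepressor genes (y axis), with a black line at each list's median and colours for genes that passed the test. The developmental ZNF genes have their median at 0.46 and the chromatin and promoter ZNF genes at -0.15, with ZNF296 at -3.86.

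Levels per gene length spread widely among the ZNF genes. The deposited TPM values are not scaled to a common total, and their columns sum to 155595 to 165666, so that they are smaller than TPM on the usual scale and serve here only to order the genes. The 204 means ranged from 0.0529 to 28.5 with a median of 0.948. The highest mean TPM was that of ZNF428, at 17.1 ± 2.96 for MC-F7 and 39.9 ± 6.24 for MT-F7 (SD, n = 3). It was followed by ZNF444 (23.5 ± 2.97 and 30.1 ± 4.24), ZNF219 (20.2 ± 3.51 and 26.3 ± 1.07), ZNF787 (18.6 ± 2.45 and 16.0 ± 1.83) and ZNF358 (13.7 ± 1.73 and 16.4 ± 2.52). Among these 5 genes, picked by the mean over both groups, the order in MC-F7 was ZNF444, ZNF219, ZNF787, ZNF428 and ZNF358, and each of the first 4 differed from the next of them by less than the larger of their SDs. In MT-F7 ZNF428 was above ZNF444 by more than the SD of either, ZNF444 and ZNF219 differed by less than the larger SD, and so did ZNF358 and ZNF787. The lowest means were those of ZNF382, ZNF599, ZNF652, ZNF618 and ZNF248, between 0.0529 and 0.114, and these 5 genes did not pass the test.

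ZNF genes with few counts passed the test less often. With a mean under 5 CPM 5 of 62 ZNF genes passed (8.06%), against 22.4% of the 3712 tested genes at that level. The tested genes at each level were not held to the minimum of 10 counts in every library, and a matched share was not taken. Between 5 and 25 CPM 16 of 77 passed (20.8%, against 26.6%), 13 of them lower, and at 25 CPM or more 12 of 65 passed (18.5%, against 21.2%), 9 of them lower. The median standard error of the log2 fold change was 0.213 over the ZNF genes and 0.202 over all tested genes.

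**Figure D4:**
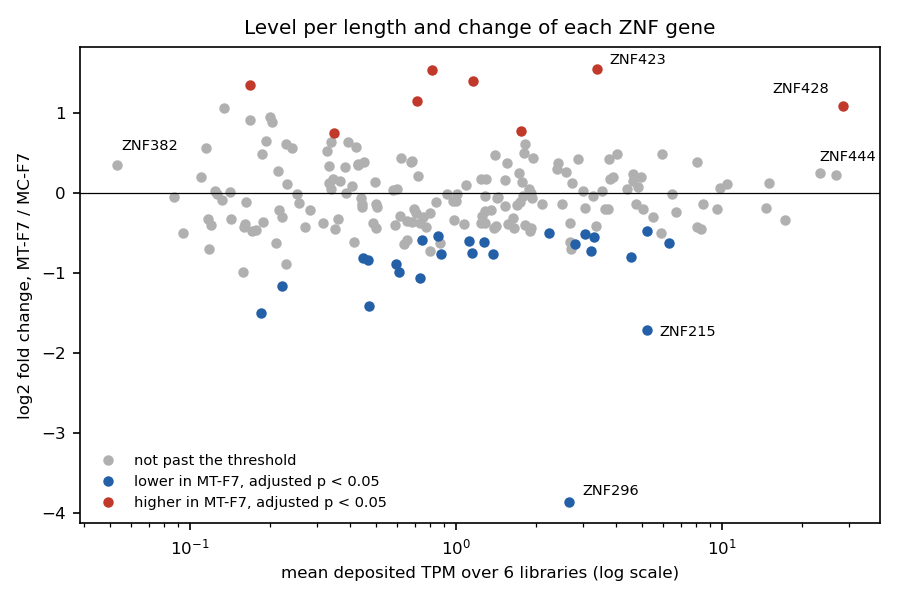
Mean deposited TPM over the 6 libraries on a log scale (x axis) and log2 fold change (y axis, MT-F7 over MC-F7) of each of the 204 ZNF genes. ZNF428 is the rightmost point, at a TPM of 28.5 and a log2 fold change of 1.10, and ZNF382 the leftmost, at 0.0529.

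The ZNF genes as a group varied between libraries of the same group. For each library the median deviation of the 204 genes from their group mean was taken in log2 CPM. It was -0.11, 6.5e-05 and 0.12 in MC-F7 replicates 1, 2 and 3, and 0.0019, -0.041 and 0.067 in MT-F7 replicates 1, 2 and 3. In MC-F7 replicate 1, 70 of the 204 genes were above their group mean, and in MC-F7 replicate 3, 136 were. The same medians over all other tested genes stayed between -0.013 and 0.018. The 73 other zinc finger genes (ZNF symbols with a letter, ZFP, ZBTB, ZSCAN and ZKSCAN) deviated in the same order within each group, from -0.11 to 0.17 in MC-F7 and from -0.084 to 0.091 in MT-F7. The order of the 3 libraries in each group was also that of their mitochondrial counts, from 16.3% to 28.3% in MC-F7 and from 18.0% to 27.9% in MT-F7. The part of the mitochondrial share in the ZNF levels was not tested.

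The median log2 fold change of -0.13 can be set beside the spread between libraries. Over the 9 pairs of an MT-F7 and an MC-F7 library, the median log2 difference of the ZNF genes ran from -0.23 to 0.088 and was below 0 in 7, and both pairs above 0 held MC-F7 replicate 1. The standard deviation between libraries of a group, pooled over both groups, was 0.0893 for the same median. The other 73 zinc finger genes had a median log2 fold change of 0.011, with 3 higher and 7 lower (13.7% in all).

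**Figure D5:**
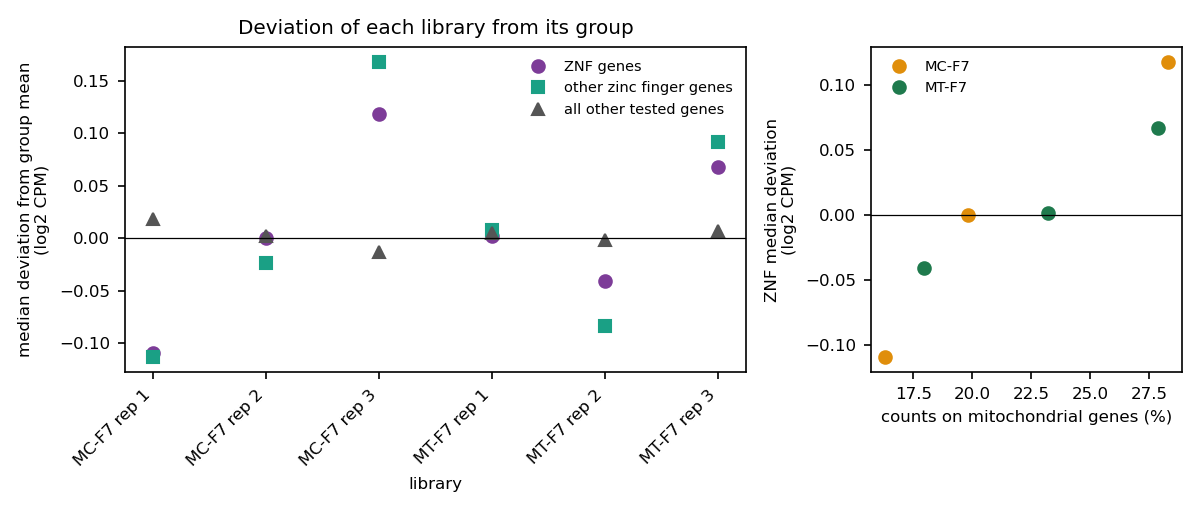
Left, median deviation of each library from its group mean in log2 CPM (y axis) for the 204 ZNF genes, the 73 other zinc finger genes and all other tested genes, by library (x axis). Right, the ZNF medians (y axis, log2 CPM) against the percent of counts on mitochondrial genes (x axis), with 3 libraries in each group. The ZNF medians run from -0.11 in MC-F7 replicate 1 to 0.12 in MC-F7 replicate 3.

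Neighbouring ZNF genes were compared by their place in the genome. In the order of protein-coding genes of the RefSeq annotation of ARS-UCD2.0, 61 of the expressed ZNF genes stood beside another one, in 27 runs, and 3 runs held 4 or more. In the run ZNF283, ZNF404, ZNF45, ZNF226 and ZNF227 only ZNF227 passed, in the run ZNF135, ZNF329, ZNF274 and ZNF8 only ZNF329 did, and the 4 genes of the run ZNF660, ZNF197, ZNF35 and ZNF502 did not pass. The medians of these 3 runs were -0.17, -0.26 and 0.0049. Of the 27 runs, no run held more than 1 passing gene. The 61 genes in runs had 1 higher and 9 lower genes and a median log2 fold change of -0.20, and the 143 others had 7 higher and 16 lower and a median of -0.035. In both sets the passing share was near the 16.2% of all ZNF genes, against 23.2% of all tested genes.

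Single pairs of neighbours gave both like and unlike values. ZNF146 and ZNF565 were at -0.80 and -0.88, although ZNF565, at means of 2.58 and 1.39 CPM, did not pass (adjusted p = 0.10). ZNF268 and ZNF10 were at -1.06 and -0.69, the latter without passing (adjusted p = 0.28). ZNF428 and its neighbour ZNF576 were at 1.10 and 0.02, and ZNF200 and ZNF263 at -0.99 and -0.13. Whether the neighbours of a pair differed was not tested. Recent copies in such clusters can share reads, and how reads that match several genes were counted is not given in the sources used here, so that their single values are less certain.

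At the lower limit of the rule stood ZNF623, ZNF382 and ZNF500, each with 10 counts in its lowest library. Just outside stood ZNF570, ZNF805, ZNF774 and ZNF185, each with 9 counts in its lowest library. The rule also leaves out a gene that is near 0 in 1 group, however high it is in the other. ZNF25 was such a gene, with raw counts of 2, 21 and 4 on mitomycin C-treated and of 80, 93 and 89 on methanol-fixed feeders. Its MC-F7 libraries were all below its MT-F7 libraries, and its mean rose from 0.382 ± 0.426 to 3.52 ± 0.303 CPM (SD, n = 3; log2 fold change 3.15, SE 0.540, adjusted p = 0.0011). Without MC-F7 replicate 2, which held most of its MC-F7 counts, the log2 fold change was 4.63.

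Of the 25 ZNF genes outside the rule 9 were tested and 11 reached 10 counts in no library. ZNF514 was the other one that passed, with raw counts of 6, 9 and 13 on mitomycin C-treated and of 31, 29 and 24 on methanol-fixed feeders (log2 fold change 1.43, SE 0.458, adjusted p = 0.038), and it kept its call in 1 of the 6 fits without 1 library. The genes that reached 10 counts in every library of MT-F7 but not of MC-F7 were ZNF25, ZNF514, ZNF557, ZNF774 and ZNF185, and those for which the reverse held were ZNF214, ZNF570, ZNF805 and ZNF621.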

How the data were processed

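RNA from floating F7 cells was sequenced in 3 MC-F7 and 3 MT-F7 libraries. Per the labels and the submitters' processing notes, the authors aligned reads with HISAT2 2.0.5 and counted them on genes with featureCounts 1.5.0-p3. The genome build and the handling of reads that match several genes are not given in the sources used here. The authors deposited raw counts per Entrez gene, and a table of values they call TPM whose columns sum to 155595 to 165666. For all 204 genes the TPM was proportional to the counts over the libraries (tolerance 0.001).

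Symbols came from the RefSeq table (ARS-UCD2.0), in which 89 of 19163 count table identifiers had no match. ZNF383, ZNF852 and ZNF853 were linked through proportional TPM values. The members and the lists were chosen with earlier results of these data known. Counts were filtered (filterByExpr, minimum count 10), normalised by TMM and tested with edgeR 4.0.16 in R 4.3.3 (glmQLFit, glmQLFTest, two-sided), with p values adjusted over 13001 genes. CPM values are TMM-normalised, except the summed marker CPM and the CPM of the 3-count limit, which use total counts. DESeq2 1.42.0 and limma 3.58.1 on log2(TPM + 1) or log2(TPM + 0.1) were alternatives. Genes named were the up to 12 passing members with the largest change in each direction whose groups did not overlap, up to 4 examples of each role list, the 5 highest and lowest by TPM, those nearest the count limit, ZNF genes with 10 counts throughout 1 group only, neighbours, and passing corepressors. The limit of 3 counts covers counting error only. Other passing members, paralogs and relatives of the examples, TRIM28, SETDB1, and which neighbours to show were chosen after their values were seen. Protein and promoter sequences were not analysed here, nor was a grouping of the genes by protein domain.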

Additional observations from a re-analysis of the deposited data

How the results depend on the processing

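RLE or library size scaling, no filter or 10 counts in all libraries, and refitting without mitochondrial genes (added after seeing the data) left 8 or 9 higher and 24 or 25 lower ZNF genes. In those fits 19.2% to 23.2% of all tested genes passed. DESeq2 gave 13 higher and 27 lower, and 26.1% of all tested genes passed. All 33 ZNF genes that passed in the main comparison also passed with DESeq2. limma on log2(TPM + 1), on log2(TPM + 0.1) and on log2(TPM + 1) without a filter gave 15, 15 and 16 higher and 11, 12 and 9 lower genes, and the median log2 fold change turned to 0.0015, 0.0048 and 0.0016. The deposited values are not corrected for depth, and 20.5%, 20.6% and 14% of all tested genes passed. The median over all tested genes also moved in these fits. The ZNF median minus it was -0.055, -0.10 and -0.0097. The spread of 0.0893 between libraries was taken in log2 CPM, a different scale. Adding 1 also shrinks changes at low TPM, and ZNF296 was at -2.12 on log2(TPM + 1) and -3.43 on log2(TPM + 0.1). Without both libraries numbered 3 (added after seeing the data) 23 were higher and 33 lower, and 32.4% of all tested genes passed. Leaving out 1 library gave 5 to 15 higher and 11 to 31 lower genes and 5 to 8 corepressors, with a ZNF median of -0.19 to -0.065. In those fits 14.5% to 23.4% of all tested genes passed.

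Same-numbered libraries of the groups deviated together with correlations of 0.13, 0.045 and 0.42, and nothing in the labels says that a number marks a shared batch, so the numbers were not taken as pairs. With the replicate block 25 ZNF genes were higher and 43 lower, 10 corepressors passed, and 36% of all tested genes passed. ZNF599, near 0 in the main comparison, turned to a log2 fold change of 0.064 with the block, 0.0095 in limma without a filter and 0.70 without both libraries numbered 3, and ranged from -0.33 to 0.57 with 1 library left out. ZNF618 ranged from -0.089 to 0.38. Unless a sentence above says otherwise, the cause was not tested. Below a mean of 5 CPM the median SE of the log2 fold change was 0.347 among ZNF genes, against 0.169 at 25 CPM or more.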
